A study of Rattus norvegicus with 36 samples.

Results

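Liver expression after TBPH at 7.06 mg/kg was compared with vehicle, using all 6 arrays of each group, 12 of the 36 arrays of the series, and every probe set that is not an array control. TBPH is bis(2-ethylhexyl) tetrabromophthalate, a brominated flame retardant and the ring-brominated relative of the plasticiser DEHP. Male Harlan Sprague Dawley rats, 7 weeks old when dosing began, received TBPH in corn oil by oral gavage, 5 ml/kg on each of 5 days, and vehicle rats received corn oil alone. The left lobe of the liver was taken 1 day after the final dose. Of the 5 doses in the series, 7.06 mg/kg is the middle one, with 0.07 and 0.71 mg/kg beneath it and 70.6 and 706 mg/kg above it, 6 arrays each. No genotype, transgene or other treatment is named for any group. The labels number the arrays within a group but do not state that each came from its own animal, so a p-value here speaks of the variation among the samples fitted, which may be technical.

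The question was whether transcripts in liver differ from vehicle at this dose. Phthalate esters with the same alcohol chain are known in rat liver for activating PPAR alpha, a nuclear receptor that drives fatty acid oxidation in peroxisomes and mitochondria and the CYP4A hydroxylases. CAR and PXR, further nuclear receptors of the hepatocyte, drive CYP2B and CYP3A enzymes in response to foreign compounds. Liver tissue also holds Kupffer cells (the resident macrophages), endothelium, stellate cells and lymphocytes, whose transcripts are measured together with those of hepatocytes.

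No transcript passed the test at 7.06 mg/kg. Of 31042 probe sets, 0 (0%) differed from vehicle at an adjusted p under 0.05 by limma's moderated test, and the smallest adjusted p was 1.00. Without adjustment, limma put 1079 probe sets (3.48%) under 0.05, fewer than the 1552.1 that are 5% of all. Of these, 341 were higher at 7.06 mg/kg (1.10% of all probe sets) and 738 lower (2.38%). The exact permutation test over the 12 arrays called 0 probe sets after adjustment, with 1498 under 0.05 unadjusted (563 higher, 935 lower) and a smallest adjusted p of 0.965. With 6 arrays against 6, the smallest p that this exact permutation test can give is 0.00216. Over 31042 probe sets that p passes adjustment only if very many reach it together, so the 0 calls of this test carry little weight. The 95% interval of the difference lay within a 2-fold change in either direction for 99.6% of probe sets. Over probe sets, the standard error of the difference had a median of 0.08 log2. The number of arrays limits this precision.

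The tissue was liver by its markers: the mean log2 value of 20 hepatocyte genes ran from 13.21 to 13.33 on vehicle arrays and from 13.23 to 13.33 at 7.06 mg/kg. Any 2 of the 12 arrays correlated between 0.993 and 0.996 over probe sets. The 3′ minus 5′ difference of the GAPDH control probes, a sign of RNA integrity, ran from -0.18 to 0.03 log2 in vehicle and from -0.08 to -0.01 at 7.06 mg/kg. The arrays where that difference was largest, replicate 5 of the 70.6 mg/kg group (0.41) and replicate 4 of the 0.07 mg/kg group (0.33), enter here only through the shared estimate of the spread.

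Among genes with a mean log2 value at or above 5.09, the median of the probe sets (called bright here), the smallest p was that of Mical3, a flavoprotein monooxygenase that acts on the actin cytoskeleton. Its log2 values were 6.09, 6.33 and 6.53 (lowest, median, highest) on vehicle arrays and 6.61, 6.79 and 7.01 at 7.06 mg/kg. Every dosed array lay above every vehicle array. The difference was 0.44 log2 (95% interval 0.22 to 0.66), the exact permutation p was 0.00216 and limma's adjusted p was 1.00. Mical3 has 2 further probe sets, and 1 of them differed in the same direction.

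Fggy, a carbohydrate kinase, was also separated completely from vehicle. Vehicle arrays gave log2 values of 9.11, 9.23 and 9.32 and dosed arrays 9.33, 9.40 and 9.45, so the highest vehicle array and the lowest dosed array nearly met. The difference was 0.17 log2 (0.06 to 0.28), which did not pass. Complete separation in the higher direction was seen in 12 of 14217 genes (0.0844%) and in the lower direction in 19 (0.134%). Among the 31 genes so separated, 15 were not bright. None of the 31 passed limma's adjusted threshold. When the 12 arrays are relabelled at random, complete separation in either direction has a probability of 0.00216. The 31 of 14217 genes are close to that share.

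Ppp1r3b, the subunit that directs protein phosphatase 1 to glycogen in hepatocytes, stood at log2 values of 10.62, 10.88 and 11.19 in vehicle and 11.09, 11.39 and 11.72 at 7.06 mg/kg. All but 1 of the dosed arrays exceeded the highest vehicle array. The difference from vehicle was 0.47 log2 (0.11 to 0.84, exact permutation p = 0.00649), and from 70.6 mg/kg it was 0.58 log2 (0.22 to 0.94). Neither passed limma's adjusted test. The gene was chosen by its p in the comparison with 70.6 mg/kg.

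Among the other bright genes with the smallest p in the higher direction, Snupn, which imports splicing particles into the nucleus, was higher by 0.22 log2 (0.08 to 0.36), with 5 of 6 dosed arrays above every vehicle array. Vezt, a protein of adherens junctions, was higher by 0.26 log2 (0.08 to 0.44), likewise in 5 of 6 arrays. Hnrnpa1, a splicing regulator, was higher by 0.19 log2 (0.05 to 0.32), and both of its other probe sets differed in that direction. The remaining members of this set were Fbxo30, Col4a5, Spats2, Cxadr, Rell1, Pigu and Ccdc141, with differences from 0.17 to 0.48 log2. Fbxo30 overlapped fully, with no dosed array above the highest vehicle array.

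Foxc2, a forkhead transcription factor of lymphatic and mesenchymal development, led the bright genes in the lower direction. Its log2 values were 6.12, 6.22 and 6.31 in vehicle and 5.70, 6.01 and 6.09 at 7.06 mg/kg, with no overlap. The difference was -0.26 log2 (-0.41 to -0.11), and both other probe sets of the gene were lower too. Trim16, a tripartite-motif protein, went from log2 values of 5.22, 5.41 and 5.42 to 5.05, 5.13 and 5.18. It too did not overlap, with a difference of -0.25 log2 (-0.39 to -0.10). Gpihbp1, which holds lipoprotein lipase on capillary endothelium, was lower by a difference of -0.20 log2 (-0.33 to -0.08), with 5 of 6 dosed arrays under the lowest vehicle array.

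B-cell genes were mostly lower, and none passed. Cd22, an inhibitory receptor of B cells, had log2 values of 5.73, 5.83 and 6.07 in vehicle and 5.61, 5.67 and 5.73 at 7.06 mg/kg. The groups did not overlap, and the difference was -0.19 log2 (-0.32 to -0.05). Ms4a1, which encodes CD20, had log2 values of 4.65, 4.82 and 4.98 in vehicle and 3.97, 4.50 and 4.69 at 7.06 mg/kg. Only 1 dosed array reached the vehicle range, and the difference was -0.38 log2 (-0.62 to -0.14, exact permutation p = 0.00866). Of 10 B-cell genes measured, 9 were below 0 and 2 had an unadjusted p under 0.05, against 1.77% of all genes in that direction, and their median was -0.10 log2 against 0.01 for all genes. In whole tissue, fewer cells of a type and less RNA per cell cannot be told apart. The mean of the list per array was 4.73 to 5.01 in vehicle and 4.54 to 4.81 at 7.06 mg/kg, with 4 dosed arrays beneath all vehicle arrays. Vehicle replicate 6 was the highest array, and without it 6 of the 10 members were lower and the median was -0.02. Without replicate 1 at 7.06 mg/kg the median was -0.07. Of the 10 members 6 were dimmer than the median probe set, and 7 were lower after cyclic loess or a further quantile normalization. Against the same vehicle arrays, B-cell genes were below 0 in 10 of 10 at 706 mg/kg (median -0.10 log2), 8 of 10 at both 0.07 and 0.71 mg/kg (medians -0.08 and -0.06) and 5 of 10 at 70.6 mg/kg (median -0.02).

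**Figure D1:**
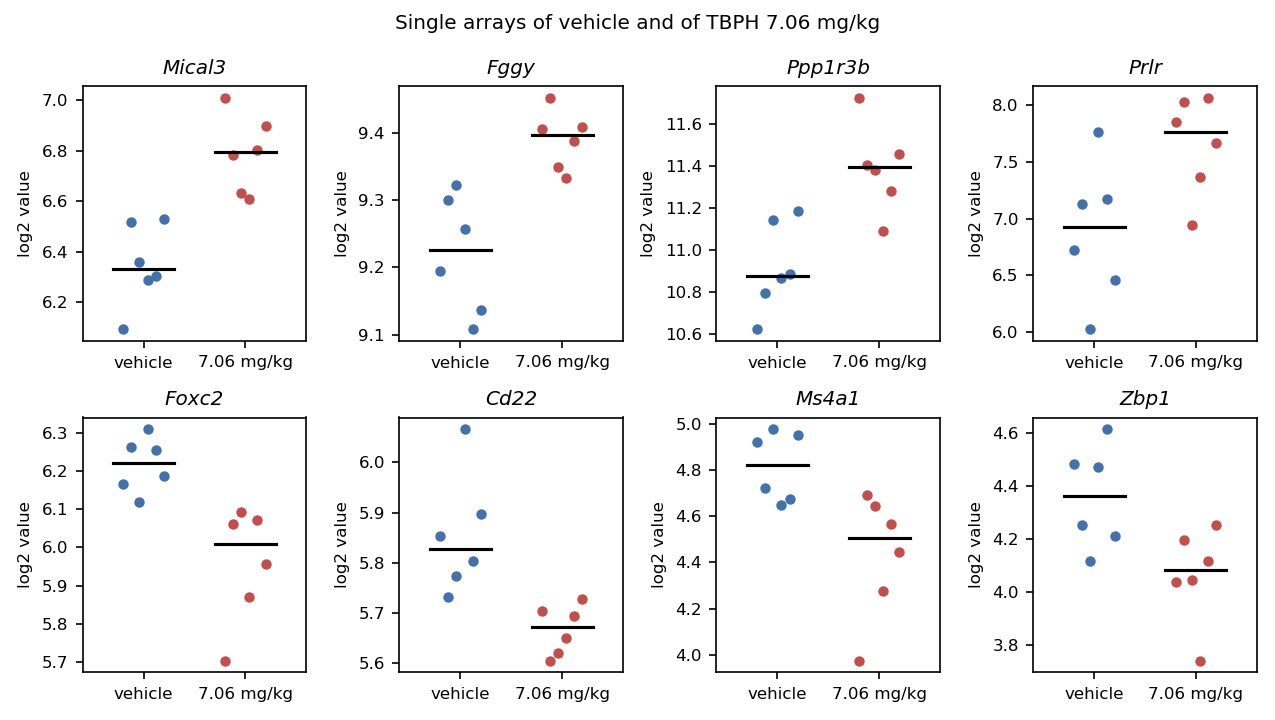
Log2 values of 8 genes on single arrays of vehicle (blue) and TBPH 7.06 mg/kg (red), with black bars at the group medians and an axis of its own for each gene. Mical3 and Fggy are separated upward and Foxc2 and Cd22 downward with no overlap, while Ppp1r3b, Prlr, Ms4a1 and Zbp1 overlap in at least 1 array.

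Interferon-response genes were mostly lower, and none passed. These genes are switched on when type I or type II interferon activates STAT proteins and IRF9. Of 45 measured, 36 were below 0, where 45.6% of all genes were. Only 1 of the 45 (Zbp1) was lower with an unadjusted p under 0.05 by limma, beside 1.77% of all genes. The median difference was -0.12 log2, against 0.01 for all genes.

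Zbp1, a sensor of nucleic acids, had log2 values of 4.12, 4.36 and 4.61 in vehicle and 3.74, 4.08 and 4.25 at 7.06 mg/kg. Of the dosed arrays, 4 lay under the lowest vehicle array. The difference was -0.29 log2 (-0.47 to -0.12, exact permutation p = 0.0152). Rtp4, a chaperone for receptors that interferon induces, had the largest difference of the list, -0.57 log2 (-1.47 to 0.34). Its log2 values were 7.92, 9.06 and 9.81 in vehicle and 6.87, 8.42 and 9.59 at 7.06 mg/kg, so 3 dosed arrays were under the vehicle range and the others inside it. Mx2, an antiviral GTPase, spread from 4.63 to 7.02 in vehicle and from 3.39 to 6.95 at 7.06 mg/kg (log2 values).

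Dtx3l, a ubiquitin ligase that pairs with Parp9, had log2 values of 7.74, 8.06 and 8.21 in vehicle and 7.52, 7.74 and 8.40 at 7.06 mg/kg, a difference of -0.21 (-0.48 to 0.06). Parp9 itself differed by -0.20 log2 (-0.57 to 0.16). Irgm, an immunity-related GTPase, differed by -0.29 log2 (-0.69 to 0.11). Cmpk2, Ifi44, Ifit1, Adar, Parp12 and Ifi27 differed by -0.30 to -0.10 log2, each with an interval across 0. In the opposite direction, the T-cell chemokine Cxcl11 was higher by 0.12 log2 (-0.07 to 0.31), and Cxcl10 and Cxcl9, named here after their values were seen, differed by 0.11 and 0.07.

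The promoters of 23 of 36 interferon members hold a motif of interferon response. The list was chosen for that response, so how often its members hold the motif does not bear on the dose. The promoters printed are shown because most of these genes lay below vehicle at this dose. The motif of interferon-stimulated response elements, GAAA followed by any 2 bases and GAAA again, on either strand, is in capitals. The sequences are from RefSeq (build GRCr8), 250 bases before to 50 after the gene's start, 5′ to 3′ along the gene. The 3 are the members with the smallest p that hold the motif.
Dtx3l (chr11:78319975-78320274, plus strand): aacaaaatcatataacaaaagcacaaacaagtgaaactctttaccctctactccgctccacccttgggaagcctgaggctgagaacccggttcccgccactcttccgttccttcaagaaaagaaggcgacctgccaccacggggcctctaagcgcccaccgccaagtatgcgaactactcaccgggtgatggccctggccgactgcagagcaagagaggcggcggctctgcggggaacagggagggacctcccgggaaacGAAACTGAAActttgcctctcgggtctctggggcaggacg
Irgm (chr10:33742529-33742828, minus strand): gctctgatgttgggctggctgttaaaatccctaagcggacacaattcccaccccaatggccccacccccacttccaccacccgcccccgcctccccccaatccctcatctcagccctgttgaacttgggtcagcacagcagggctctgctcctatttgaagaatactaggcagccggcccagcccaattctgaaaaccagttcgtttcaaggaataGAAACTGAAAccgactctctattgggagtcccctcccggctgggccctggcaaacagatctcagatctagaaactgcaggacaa
Ifi44 (chr2:243303791-243304090, minus strand): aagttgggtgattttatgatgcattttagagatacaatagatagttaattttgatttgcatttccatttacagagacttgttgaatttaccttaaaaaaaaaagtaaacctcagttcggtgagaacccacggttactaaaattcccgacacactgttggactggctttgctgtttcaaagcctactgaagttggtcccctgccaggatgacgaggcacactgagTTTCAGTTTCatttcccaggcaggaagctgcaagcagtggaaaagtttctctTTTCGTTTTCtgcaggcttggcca
The motif begins 10 bases after the start in Dtx3l and 34 before it in Irgm. Ifi44 holds 2 matches, 26 bases before and 26 after the start, both on the opposite strand. Of 36 interferon members with a promoter in the table, 23 (63.89%) hold the motif, against 1034 of all 27457 promoters (3.766%) and 1 of 16 Kupffer cell genes (6.25%). Members below 0 at 7.06 mg/kg held it in 19 of 29 (65.52%) and members above 0 in 4 of 7 (57.14%). A match describes these letters and does not show that a factor binds there.

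Interferon values overlapped between the groups on single arrays. The list mean per array was 6.51, 6.99 and 7.29 (lowest, median, highest) in vehicle and 6.31, 6.73 and 7.26 at 7.06 mg/kg. At 7.06 mg/kg, 2 arrays lay under the vehicle range and none above it, and in vehicle replicates 2 and 3 stood near 6.51, apart from the other 4 arrays. Without replicate 3 at 7.06 mg/kg the median difference of the list was -0.07, and without replicate 6 at that dose it was -0.20. The number of members below 0 ran from 32 (without vehicle replicate 1) to 42 (without replicate 5 at 7.06 mg/kg).

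Kupffer cell and macrophage genes leaned the same way. Of 22 measured, 19 were below 0, 0 had an unadjusted p under 0.05 by limma, and the median was -0.07 log2. Adgre1, which encodes the macrophage surface protein F4/80, had log2 values of 6.50, 6.84 and 7.02 in vehicle and 6.18, 6.62 and 6.97 at 7.06 mg/kg, a difference of -0.23 (-0.52 to 0.07). Clec4f, a lectin of Kupffer cells, differed by -0.15 log2 (-0.45 to 0.15), and Cd5l and Mpeg1 by -0.22 each. Lyz2 (lysozyme) was higher by 0.16 log2 (-0.36 to 0.69), and without vehicle replicate 3 it was lower, at -0.07.

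The macrophage list mean per array was 8.05, 8.30 and 8.44 in vehicle and 7.93, 8.17 and 8.49 at 7.06 mg/kg. Of the dosed arrays, 3 lay under the vehicle range and 1 (replicate 6) above it. The same replicate was the highest dosed array for the interferon and B-cell lists. Without replicate 1 at 7.06 mg/kg, 15 of 22 members were below 0 and the median was -0.02, and without replicate 6 it was -0.15. Without vehicle replicate 1 the median was -0.04 and without vehicle replicate 3 it was -0.13. Whether the number of macrophages played a part in the interferon values was not tested.

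MHC class I and immunoproteasome genes, which prepare and present peptides, were below 0 in 12 of 14 with a median of -0.06 log2. B2m, the light chain of class I molecules, differed by -0.07 log2 (-0.17 to 0.03) and Erap1, a peptide-trimming protease, by -0.12 (-0.33 to 0.10). Class II genes were mixed, 5 of 9 below 0 with a median of -0.03 log2. T and NK cell genes were below 0 in 15 of 24 and neutrophil and monocyte genes in 8 of 14, with medians of -0.03 and -0.06 log2. Endothelial and stellate cell genes had medians of 0.02 and 0.03 log2, with 10 of 16 and 17 of 27 above 0.

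**Figure D2:**
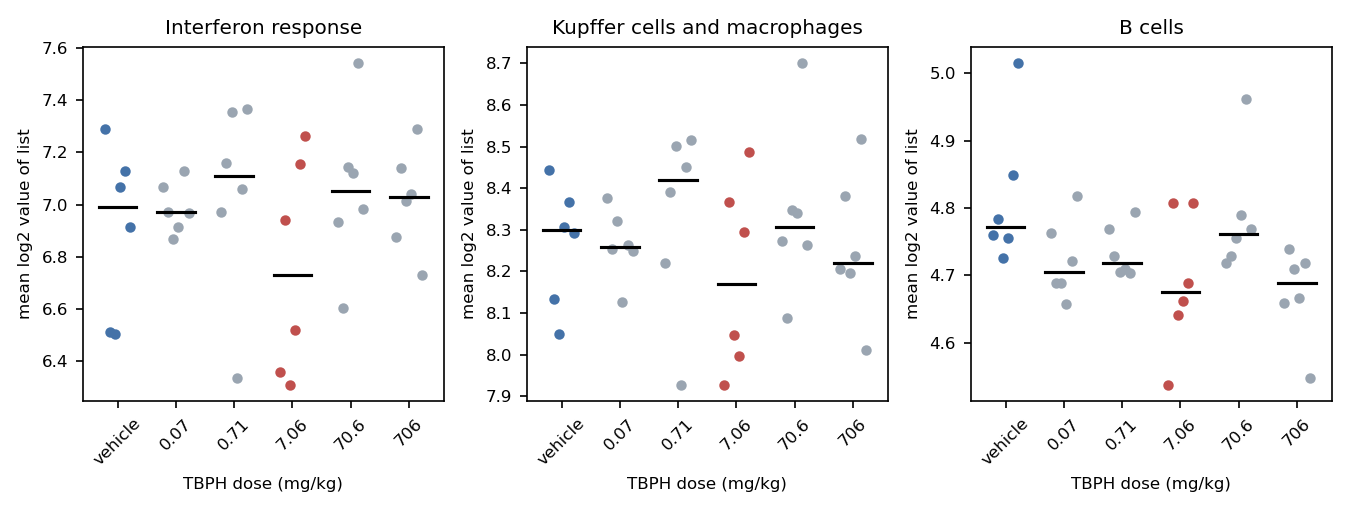
Mean log2 value of the members of 3 gene lists on each of the 36 arrays, by dose of TBPH, with vehicle in blue, 7.06 mg/kg in red, the other doses in grey and black bars at group medians. In the interferon panel the arrays at 7.06 mg/kg run from 6.31 to 7.26 and those of vehicle from 6.51 to 7.29, and in the B-cell panel 4 arrays at 7.06 mg/kg lie beneath all 6 vehicle arrays.

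Targets of PPAR alpha did not stand out. Of 48 measured, 15 were above 0 and 33 below, with a median of -0.02 log2. Only 1 of the 48 was lower with an unadjusted p under 0.05 by limma, beside 1.77% of all genes. That gene was Acot1, a thioesterase that frees fatty acids from coenzyme A. Its log2 values were 2.40, 2.81 and 3.06 in vehicle and 2.47, 2.55 and 2.75 at 7.06 mg/kg, near the low end of the scale and overlapping throughout, and the difference was -0.23 (-0.42 to -0.04). Cyp4a1, the fatty acid omega-hydroxylase that marks peroxisome proliferators in rat liver, had log2 values of 11.01, 11.24 and 11.72 in vehicle and 10.78, 11.39 and 11.52 at 7.06 mg/kg. Its difference of 0.02 log2 (-0.29 to 0.32) turned to -0.0026 when arrays were weighted by their quality. Ehhadh, the bifunctional enzyme of peroxisomal oxidation, differed by -0.05 log2 (-0.23 to 0.14), and Pex11a, which divides peroxisomes, by -0.18 (-0.36 to 0.00).

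Pdk4, the kinase that closes pyruvate dehydrogenase in fasting, was among the targets above 0, as was the fasting hormone Fgf21 (0.88 log2, -0.42 to 2.18), named after its value was seen. For Pdk4 the log2 values were 8.44, 9.25 and 9.75 in vehicle and 8.71, 9.68 and 10.15 at 7.06 mg/kg, a difference of 0.37 (-0.11 to 0.85) with 2 arrays above the vehicle range. Pck1, the gluconeogenic enzyme PEPCK, went the other way. It had log2 values of 12.42, 12.85 and 13.38 in vehicle and 12.19, 12.44 and 12.81 at 7.06 mg/kg. With 3 dosed arrays under the vehicle range, the difference was -0.40 (-0.78 to -0.02, exact permutation p = 0.0433) and did not pass limma's adjusted test. The 28 genes of gluconeogenesis and fasting split evenly, 14 above 0 and 14 below, with a median of 0.00 log2.

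Lipid synthesis genes leaned higher. In cholesterol biosynthesis, 18 of 20 genes were above 0, 0 with an unadjusted p under 0.05 by limma, and the median was 0.11 log2. Insig1, which retains the SREBP complex in the endoplasmic reticulum, had log2 values of 10.45, 10.86 and 11.51 in vehicle and 10.72, 11.23 and 12.20 at 7.06 mg/kg, a difference of 0.47 (-0.13 to 1.08). Sqle, squalene epoxidase, differed by 0.19 log2 (-0.25 to 0.64), with every dosed array inside the vehicle range. The list mean ran from 10.01 to 10.46 in vehicle and from 10.07 to 10.53 at 7.06 mg/kg, so the groups overlapped. Its median was above 0 at every dose against the shared vehicle arrays, with 0.11 log2 at 7.06 mg/kg beside 0.16 at 0.71, 0.23 at 0.07, 0.19 at 70.6 and 0.16 at 706 mg/kg.

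In fatty acid and triglyceride synthesis, 21 of 26 genes were above 0, with a median of 0.07 log2. Against the same vehicle arrays, 22 were above 0 at 0.07, 19 at 0.71, 10 at 70.6 and 14 at 706 mg/kg. At 7.06 mg/kg no member had an unadjusted p under 0.05 by limma. Scd2 (a desaturase) and Gpam, which begins glycerolipid synthesis, were each higher by 0.26 log2, with intervals from -0.02 to 0.54 and from -0.04 to 0.55. Gpam exceeded the vehicle range on 4 of 6 dosed arrays. For Scd2, none of the 3 other probe sets differed in the same direction.

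Of the bile acid genes, Cyp7a1 encodes the first and rate-limiting step of the neutral pathway. Its log2 values were 9.30, 10.74 and 11.21 in vehicle, and at 7.06 mg/kg the lowest was 8.56 and the median 10.12. The groups overlapped widely, and 2 dosed arrays lay under the vehicle range, with a difference of -0.63 (-1.61 to 0.36). Cyp8b1, which sets the share of cholic acid, differed by -0.23 log2 (-0.53 to 0.07) with 4 dosed arrays under the vehicle range. The 23 genes of the list had a median of 0.01 log2, with 15 above 0.

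Targets of CAR and PXR had a median of 0.04 log2, with 18 of 27 above 0. Cyp3a23-3a1, the PXR-induced steroid hydroxylase, had log2 values of 12.03, 12.70 and 13.02 in vehicle and 12.50, 12.66 and 12.75 at 7.06 mg/kg, inside the vehicle range. Its difference was -0.0042 log2 (-0.24 to 0.23), and 0.013 when each array was centred on its median. Cyp2b3 was lower by 0.10 log2 with a narrow spread (-0.20 to -0.01), its log2 values being 12.92, 13.04 and 13.16 in vehicle and 12.84, 12.92 and 13.01 at 7.06 mg/kg. As a member of a family of near-identical P450s, its probe set may also read relatives. Whether Cyp2b3 responds to CAR or PXR was not tested, so its difference is not a reading of either receptor. Cyp1a1, the classic target of the aryl hydrocarbon receptor, differed by 0.01 log2 (-0.20 to 0.22).

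Some members of the stress and hormone lists varied widely between arrays. Atf3, a transcription factor of the integrated stress response, had log2 values of 4.81, 5.17 and 5.49 in vehicle and 4.81, 5.97 and 6.79 at 7.06 mg/kg. On 4 dosed arrays it exceeded the vehicle range, and the difference was 0.67 log2 (0.03 to 1.32, exact permutation p = 0.0823). Prlr, the prolactin receptor, had log2 values of 6.02, 6.92 and 7.76 in vehicle and 6.95, 7.76 and 8.07 at 7.06 mg/kg. Its difference was 0.78 log2 (0.10 to 1.46, exact permutation p = 0.0303), with 3 dosed arrays above the vehicle range, and both other probe sets of the gene differed in that direction. Neither gene passed limma's adjusted test.

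Errfi1, a brake on EGF receptor signalling in the glucocorticoid list, differed by 0.49 log2 (0.02 to 0.96), and Bhlhe40, a clock repressor, by 0.69 (-0.08 to 1.46). Immediate early genes had a median of 0.10 log2 with 17 of 30 above 0, and p53 targets one of 0.09 with 12 of 17 above 0. Cell cycle genes were above 0 in 31 of 49. Mki67, the proliferation marker, had log2 values of 3.84, 4.26 and 5.05 in vehicle and 4.24, 4.58 and 4.89 at 7.06 mg/kg, a difference of 0.22 (-0.27 to 0.70). Zonation, iron and other-tissue markers supplied isolated genes: Aldh1b1 at 0.41 log2 (0.05 to 0.76), Tbx3 at -0.47 (-0.92 to -0.03), Steap3 at 0.19 (0.00 to 0.38), and the intestinal genes Fabp2 at 0.52 (0.08 to 0.97) and Vil1 at -0.28 (-0.51 to -0.06).

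No gene of the detoxification and stress lists passed the adjusted threshold in limma. NRF2 targets, which guard against oxidants, were above 0 in 13 of 27, conjugation enzymes in 22 of 37 and aryl hydrocarbon receptor targets in 3 of 10. Gstp1, a glutathione transferase, had log2 values of 8.58, 8.67 and 8.88 in vehicle and 8.71, 8.82 and 8.88 at 7.06 mg/kg, a difference of 0.10 (-0.02 to 0.23). Its dosed arrays all lay inside the vehicle range. Tiparp, a target of the aryl hydrocarbon receptor, differed by 0.29 log2 (-0.05 to 0.64), while Ahrr, the receptor's repressor, differed by -0.18 (-0.38 to 0.02). Genes of endoplasmic reticulum stress were above 0 in 15 of 26 and heat shock chaperones in 11 of 18. Chac1, which degrades glutathione in that stress, reached 8.83 on its highest dosed array against 6.82 in vehicle, and Hspa1a, the inducible HSP70, reached 6.63 against 5.46. For both, 2 dosed arrays lay above the vehicle range, with differences of 0.70 log2 (-0.21 to 1.62) and 0.32 (-0.09 to 0.73).

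None of the secreted liver proteins or hormone-responsive genes passed the adjusted threshold either. Acute phase genes were above 0 in 14 of 25 and complement and coagulation genes in 16 of 29, with medians of 0.00 and 0.01 log2. Crp, C-reactive protein, had log2 values of 12.53, 12.63 and 12.74 in vehicle and 12.51, 12.52 and 12.66 at 7.06 mg/kg. Of its dosed arrays 4 lay under the vehicle range, by a difference of -0.09 (-0.20 to 0.02). Genes set by growth hormone and sex were above 0 in 14 of 27, and within that list Obp3, an odorant-binding protein, was at -0.40 log2 (-0.87 to 0.07) and the male-specific Cyp2c11 at -0.08 (-0.19 to 0.03). Thyroid hormone genes and clock genes were each above 0 in 13 of 19, with medians of 0.02 and 0.03 log2. Iron genes were above 0 in 7 of 19, zonation genes in 13 of 24, and lipases and carboxylesterases in 12 of 21. Markers of bile ducts were above 0 in 6 of 13, erythroid genes in 7 of 12 and genes of other tissues in 9 of 22. Krt19, a bile duct keratin, differed by 0.31 log2 (-0.10 to 0.71), with 1 dosed array at 6.14 against a vehicle maximum of 5.56.

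Abundant housekeeping transcripts leaned slightly higher. Cytosolic ribosomal protein genes were above 0 in 27 of 31 with a median of 0.05 log2, and respiratory chain genes in 40 of 50 with a median of 0.02. Rps24 and Cox4i1, their members with the smallest or next smallest p, differed by 0.12 and 0.10 log2. Against the same vehicle arrays, ribosomal genes above 0 numbered 20 at 0.07, 27 at 0.71, 19 at 70.6 and 14 at 706 mg/kg. Respiratory chain genes above 0 numbered 40, 35, 37 and 29 at those doses. Over all 38 lists, 18 of 835 genes (2.16%) were under 0.05 before adjustment. Of these, 6 (0.719%) lay above vehicle and 12 (1.44%) beneath it. Over all genes those shares were 2.98%, 1.21% and 1.77%. The median was above 0 in 25 lists and below 0 in 13.

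**Figure D3:**
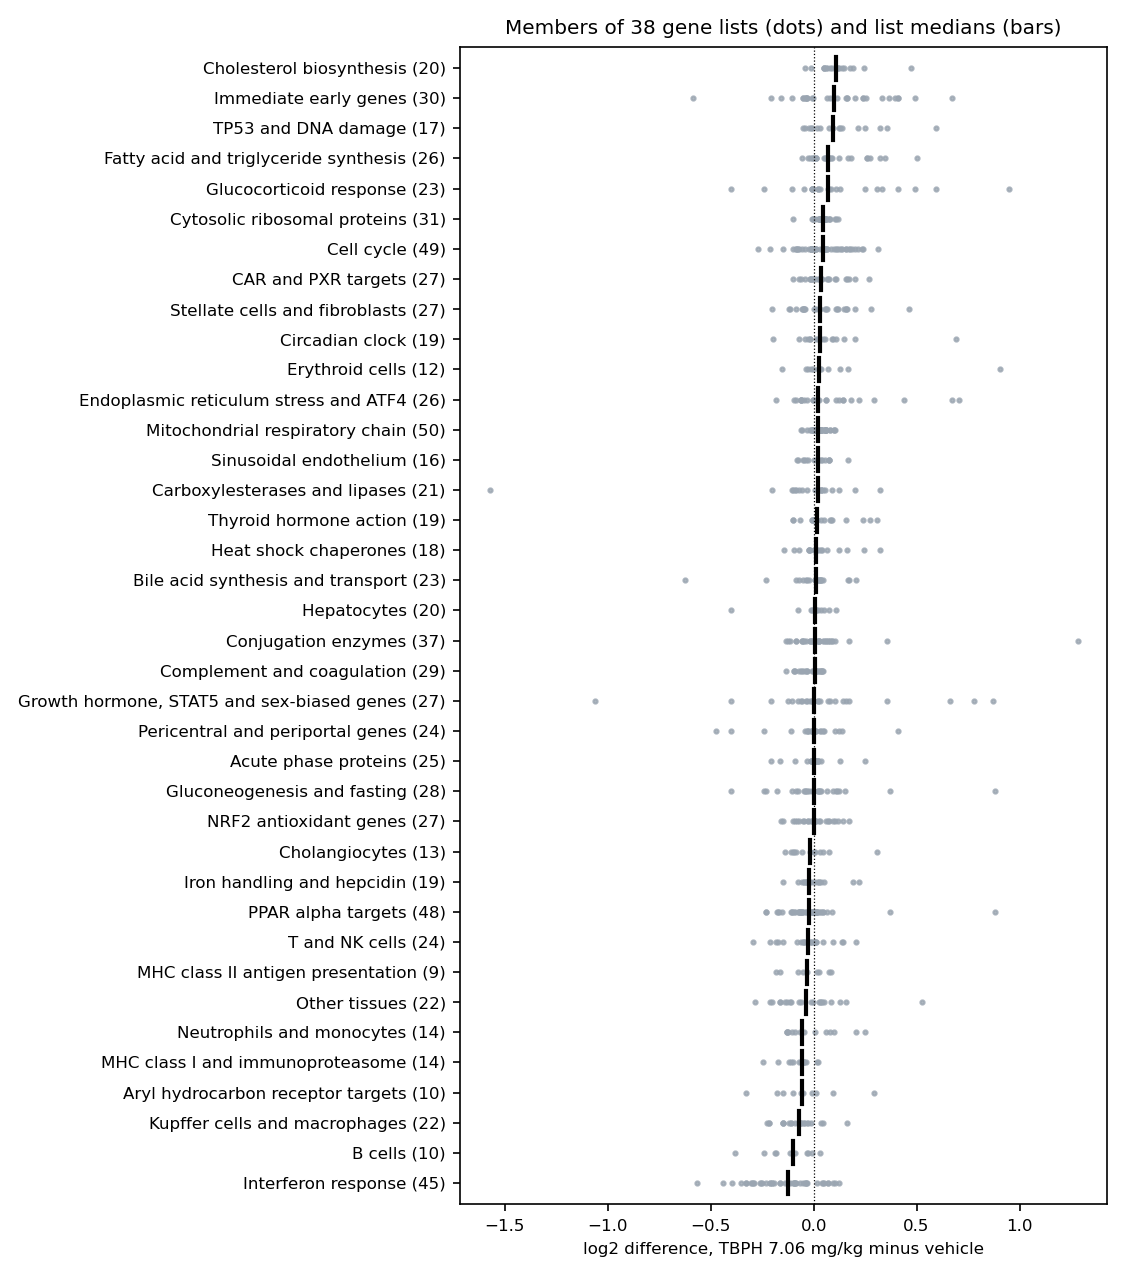
Log2 difference of 7.06 mg/kg minus vehicle for every measured member (grey dots) of 38 gene lists, with a black bar at each list's median and the number of members in brackets. The medians run from -0.12 for interferon-response genes to 0.11 for cholesterol biosynthesis genes, and single members spread far more widely than the medians.

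The direction of the small p-values followed the brightness of the probe sets. Probe sets were split by mean value into 5 groups of equal size. Among the dimmest group, 51 probe sets in the higher direction and 242 in the lower were under 0.05 before adjustment. Among the brightest group the counts were 50 and 5. Of all such probe sets 68.4% were lower as deposited, 54.4% (430 higher, 514 lower) after a further quantile normalization and 51.3% (464 and 488) after cyclic loess, and the brightest group then held 25 higher and 31 lower or 25 and 27. Centring each array on its median, which itself acts on the balance, gave 49.5% lower (519 and 508), but the pattern with brightness remained, with 99 higher and 160 lower in the dimmest group and 84 and 1 in the brightest. Per array, the median deviation from the vehicle mean was taken over the groups at 5.84 or above and over those at 4.44 or below. The first minus the second ran from -0.07 to 0.06 log2 in vehicle and from -0.01 to 0.09 at 7.06 mg/kg. Each low end was a single array. Without vehicle replicate 6 the vehicle arrays ran from 0.004 to 0.06, and without dosed replicate 4 the dosed arrays ran from 0.03 to 0.09. The small shifts of the ribosomal and respiratory chain lists lie in the bright part of this pattern, and its part in them was not tested. Interferon genes were below 0 in 36 of 45 under each of these 3 normalizations as well, with medians from -0.14 to -0.11 log2. The lean of small p-values to the lower side was not particular to this dose. As deposited, against the same vehicle arrays, the share lower was 59.4% at 0.07, 63.6% at 0.71, 53.8% at 70.6 and 61.9% at 706 mg/kg.

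**Figure D4:**
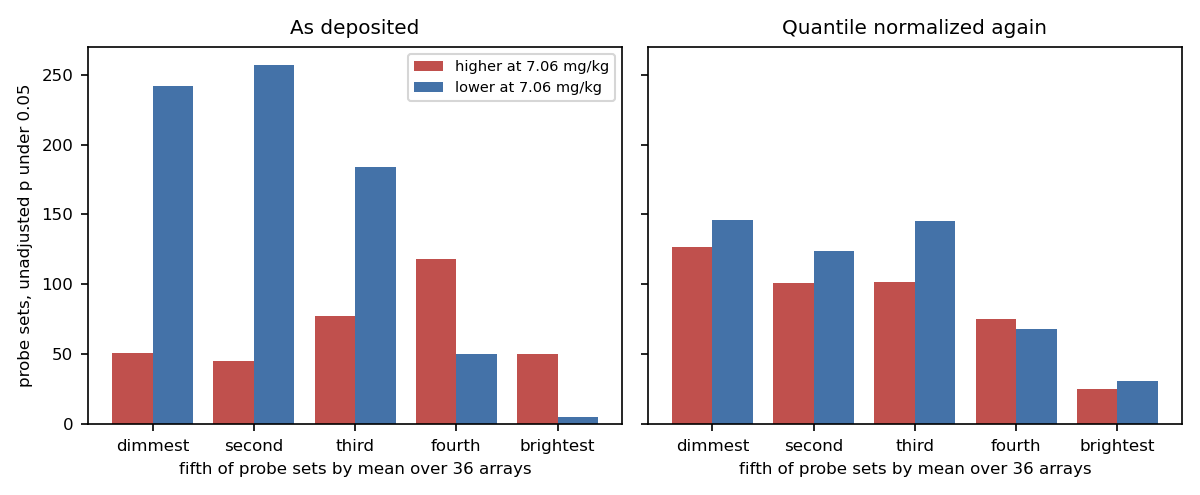
Number of probe sets with an unadjusted p under 0.05, higher (red) or lower (blue) at 7.06 mg/kg than in vehicle, in 5 equal groups by mean log2 value over 36 arrays, as deposited (left) and after a further quantile normalization (right). As deposited the dimmest group holds 242 lower against 51 higher, and on the right it holds 146 against 127.

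Differences beyond 2-fold were few. Only 5 probe sets exceeded 2-fold, and they came from Abhd3, Bcl6, Prlr and Ugt2b, the last with 2 probe sets. They are described here after their values were seen. The brighter Ugt2b probe set, for a UDP-glucuronosyltransferase family whose members share sequence, had log2 values from 12.90 to 13.38 at 7.06 mg/kg. In vehicle it had 5 arrays between 12.97 and 13.29 and replicate 5 at 5.36. Its second probe set behaved alike, with vehicle replicate 5 at 2.72 and every other array at 8.63 or above. Abhd3, a phospholipase, was at 7.49 and 7.70 in vehicle replicates 4 and 6 and between 2.56 and 3.24 on the other 10 arrays.

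The genes with the widest range among dosed arrays also ranged widely in vehicle. Bcl6, a repressor that growth hormone lowers through STAT5, had log2 values of 6.60, 7.95 and 9.58 in vehicle and 5.84, 6.61 and 9.92 at 7.06 mg/kg. There, replicate 2 stood alone at the top and 3 arrays were beneath the vehicle range, and the difference was -1.06 (-2.34 to 0.22). Onecut1, a hepatic transcription factor, had log2 values of 6.41, 7.67 and 10.18 in vehicle and 6.32, 9.46 and 10.13 at 7.06 mg/kg, a difference of 0.87 (-0.54 to 2.28). Ubd, a ubiquitin-like protein that cytokines induce, was at 4.59 on replicate 2 at 7.06 mg/kg and 5.08 on vehicle replicate 4, while the other 10 arrays lay between 7.19 and 8.33. RT1-Bb, a class II chain, was near 7.31 on vehicle replicate 1 and at 6.54 and 6.51 on dosed replicates 1 and 2, with the other 9 arrays between 3.38 and 4.30. For these last genes, the arrays fell into high and low values within both groups.

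**Figure D5:**
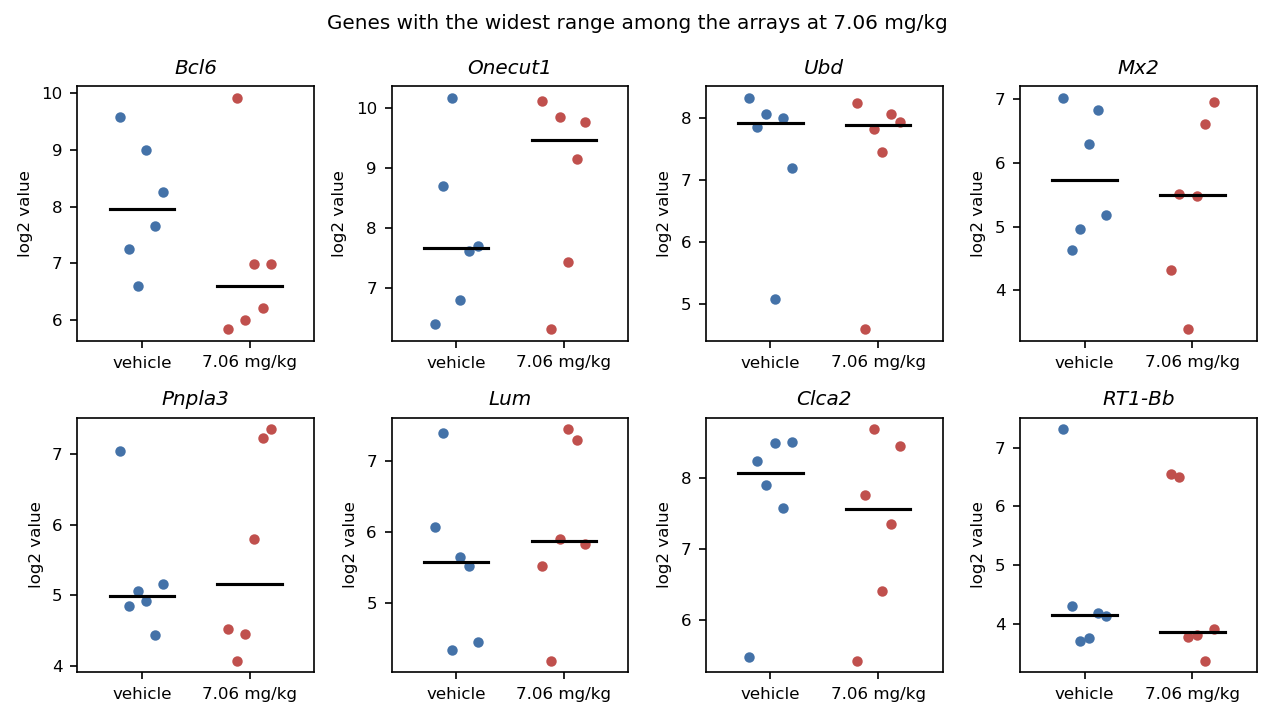
Log2 values on single arrays of vehicle (blue) and TBPH 7.06 mg/kg (red) for the 8 genes with the widest range at 7.06 mg/kg, with black bars at group medians and an axis of its own for each gene. Ubd shows 1 low array in each group and RT1-Bb 1 high array in vehicle against 2 at 7.06 mg/kg.

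Most interferon genes were also lower on average than at the neighbouring doses. Against 0.71 mg/kg, 0 of 31042 probe sets (0%) passed limma's adjusted test, and 880 (2.83%) had a p under 0.05 before adjustment. Of those, 411 (1.32%) were higher at 7.06 mg/kg and 469 (1.51%) lower. Against 70.6 mg/kg, 0 (0%) passed and 1287 (4.15%) were under 0.05 unadjusted, with 576 (1.86%) higher and 711 (2.29%) lower. In both comparisons 42 of 45 interferon genes were below 0, with medians of -0.21 and -0.25 log2, where 49.5% and 53.0% of all genes were below 0. Both comparisons use the same 6 arrays at 7.06 mg/kg, and members measured on the same arrays are not independent of each other. The list mean per array ran from 6.31 to 7.26 at 7.06 mg/kg. It ran from 6.34 to 7.37 at 0.71 and from 6.60 to 7.54 at 70.6 mg/kg, so the groups overlapped. Against the shared vehicle arrays the list's median was -0.12 log2 at 7.06 mg/kg, beside 0.11 at 0.71, 0.09 at 0.07, 0.16 at 70.6 and 0.11 at 706 mg/kg.

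Members with an unadjusted p under 0.05 numbered 9 of 45 against each neighbouring dose, all of them lower. Of all genes, 2.48% had such a p against 0.71 mg/kg (1.22% higher, 1.25% lower) and 3.85% against 70.6 mg/kg (1.67% higher, 2.18% lower). Oasl, an antiviral synthetase-like protein, had log2 values of 4.82, 5.08 and 5.68 at 7.06 mg/kg and 5.22, 5.54 and 5.95 at 0.71 mg/kg, a difference of -0.38 (-0.68 to -0.08). Ifi44 had log2 values of 5.53, 5.95 and 6.36 at 7.06 mg/kg and 6.24, 6.28 and 6.48 at 70.6 mg/kg, a difference of -0.37 (-0.64 to -0.10). Both pairs of groups overlapped. Both counts were 4 when only the 12 arrays of the comparison were fitted. The counts rested on few arrays: against 0.71 mg/kg they ran from 0 without replicate 6 at 0.71 mg/kg to 22 without its replicate 4, and against 70.6 mg/kg from 1 without replicate 5 at 70.6 mg/kg to 22 without replicate 6 at 7.06 mg/kg. Leaving out replicate 2, 3 or 5 at 0.71 mg/kg gave 4, 1 and 5, and leaving out replicate 1, 3, 4, 5 or 6 at 7.06 mg/kg gave 1, 1, 2, 14 and 19 against 0.71 mg/kg. Against 70.6 mg/kg, leaving out replicate 1, 2, 3, 4 or 5 at 7.06 mg/kg gave 2, 14, 1, 2 and 17, and leaving out replicate 2, 3 or 4 at 70.6 mg/kg gave 19, 3 and 5. The median against 0.71 mg/kg was -0.13 without replicate 1 at 7.06 mg/kg and -0.14 without replicate 3. Replicate 5 at 70.6 mg/kg is the array with the largest GAPDH difference, and without it and replicate 4 of the 0.07 mg/kg group the median against 70.6 mg/kg was -0.17, with 37 of 45 below 0.

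MHC class I and immunoproteasome genes followed. All 14 were below 0 against 0.71 mg/kg (median -0.19 log2) and all 14 against 70.6 mg/kg (median -0.24). Against 70.6 mg/kg 8 were lower with an unadjusted p under 0.05 by limma, beside 2.18% of all genes. Among the 8 were Tap1, the peptide transporter, at -0.47 log2 (-0.90 to -0.05) and Psmb9, an immunoproteasome subunit, at -0.61 (-1.14 to -0.08). Both are named after their values were seen. Against 0.71 mg/kg 2 were lower with such a p, beside 1.25% of all genes. That count was 0 without replicate 3 at 0.71 mg/kg or replicate 3 or 4 at 7.06 mg/kg. It was 5 without replicate 4 at 0.71 mg/kg or replicate 2 at 7.06 mg/kg. The count of 8 against 70.6 mg/kg was 0 when only the 12 arrays of that comparison were fitted, 0 without replicate 5 at 70.6 mg/kg, 0 without replicate 3 or 4 at 7.06 mg/kg, and 1 without replicate 3 at 70.6 mg/kg. It was 3 without replicate 1 at 7.06 mg/kg, and 5 without replicate 4 at 70.6 mg/kg. All 14 genes stayed below 0 without that replicate 5, with a median of -0.11. Kupffer cell genes were below 0 in 19 of 22 against 0.71 mg/kg and 20 of 22 against 70.6 mg/kg, with medians of -0.18 and -0.20 log2. Against 70.6 mg/kg that median was -0.11 without replicate 5 at 70.6 mg/kg and -0.14 without replicate 1 at 7.06 mg/kg.

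Some lists outside the immune ones also leaned one way against a neighbouring dose. Stellate cell and fibroblast genes were below 0 in 25 of 27 against 0.71 mg/kg, where 49.5% of all genes were, but in 10 of 27 against vehicle. Of the 27, 3 were lower than at 0.71 mg/kg with an unadjusted p under 0.05 by limma, beside 1.25% of all genes. Their median against 0.71 mg/kg was -0.15 log2. Without replicate 6 at 0.71 mg/kg that median was -0.08, with 22 of 27 below 0, and leaving out 1 array gave from 0 genes with such a p (without replicate 3 at 7.06 mg/kg) to 7 (without replicate 4 at 0.71 mg/kg). Immediate early genes were below 0 in 22 of 30 against 70.6 mg/kg, where 53.0% of all genes were, and in 13 of 30 against vehicle. Again 3 were lower than at 70.6 mg/kg with an unadjusted p under 0.05 by limma, beside 2.18% of all genes. Their median against 70.6 mg/kg was -0.12 log2. That median was -0.25 without replicate 1 at 7.06 mg/kg, and leaving out 1 array gave from 3 to 5 genes with such a p. Single genes also had a small unadjusted p. Gpcpd1, a glycerophosphodiesterase, had log2 values of 6.34, 6.44 and 6.57 at 7.06 mg/kg and 5.96, 6.18 and 6.29 at 0.71 mg/kg, with no overlap and a difference of 0.30 (0.10 to 0.51). Rcan3, a calcineurin regulator, had log2 values of 5.29, 5.32 and 5.39 at 7.06 mg/kg, 5.45, 5.46 and 5.63 in vehicle and 5.38, 5.51 and 5.65 at 0.71 mg/kg. It was under every vehicle array. Wdr33, a factor of messenger RNA polyadenylation, stood at 7.70 to 7.99 against 6.51 to 7.69 at 70.6 mg/kg, with a difference of 0.51 log2 (0.21 to 0.80). Junb, an immediate early transcription factor, had log2 values of 5.98, 6.53 and 6.84 at 7.06 mg/kg and 6.52, 7.15 and 7.60 at 70.6 mg/kg, a difference of -0.64 (-1.03 to -0.25), while against vehicle it differed by -0.10 (-0.50 to 0.29). Hsd17b2, which inactivates estradiol and testosterone, differed by -0.62 log2 (-0.96 to -0.28) from 70.6 mg/kg. None of these passed limma's adjusted test.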

How the data were processed

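The authors deposited log2 expression values, 1 for each array and probe set. Per the submitters' processing notes RMA and affy were used, with versions, settings and annotation not given in the sources used here. RMA includes quantile normalization, so a change common to most transcripts would be largely removed. The deposited values still differed slightly between arrays. Their median over all probe sets ran from 5.09 to 5.12 in vehicle and from 5.07 to 5.10 at 7.06 mg/kg, with 4 dosed arrays beneath all vehicle arrays. The table has 31099 probe sets, of which 57 are array controls and the other 31042 were tested. Genes were named only from the 20826 probe sets with 1 symbol in the array annotation (436 have several, 9780 none), which gave 14217 genes, each represented by its brightest probe set. Symbols can be old; 20758 probe sets matched a current gene by Entrez ID.

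limma 3.58.1 in R 4.3.3 fitted 1 mean per group to all 36 arrays (30 residual degrees of freedom), with two-sided moderated tests and Benjamini-Hochberg adjustment over all probe sets at 0.05. The design text of the series names R/maanova, which was not available, and limma is the nearest fit. The exact permutation test of 924 relabellings is two-sided. Scripts were tested on simulated data. The gene lists, the comparison and the genes named were chosen with earlier results of these data known. Named genes are the 12 bright genes with the smallest p each way, the 2 with the smallest p in each of 38 lists, the 12 with the smallest p in the interferon and Kupffer cell lists, a panel of 10 (1 of them is not reported here), the 8 with the widest range at 7.06 mg/kg and 5 each way against the 0.71 and 70.6 mg/kg groups; others are said to be chosen after their values were seen. List counts and medians carry no test. Promoters are from RefSeq (GRCr8). The alternatives were the arrays in the fit, moderation of the variance, array weights, leaving out dim probe sets, the normalization (cyclic loess was added after seeing the data), the threshold, a replicate block and leaving out each array.

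The replicate numbers showed no clear pairing of vehicle with 7.06 mg/kg. Deviations of arrays with the same number correlated from -0.18 to 0.17, 1 of 6 above 0.1. For 0.71 with 7.06 mg/kg they correlated from -0.08 to 0.27, 3 of 6 above 0.1. For 70.6 with 7.06 mg/kg the range was -0.06 to 0.16, 2 of 6 above 0.1. So few pairs cannot exclude pairing.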

Additional observations from a re-analysis of the deposited data

Results flagged for a closer look

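Each of these values is a single array of vehicle or of 7.06 mg/kg whose gap to the nearest other array of its group was larger, as a share of the group's whole range, than Dixon's 95% critical value for 6 arrays. Of 328 groups checked 21 had such an array, where chance gives about 1 in 20, or 16.4. The genes checked include some chosen for a small p or a wide range in these same arrays, so that rate need not hold for them.

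At 7.06 mg/kg, replicate 2 was high for Bcl6 (9.92, the others up to 7.00) and low for Ubd (4.59, the others from 7.46). Replicate 5 was high for the bile duct keratin Krt19 (6.14, the others up to 5.39) and for Crp, the C-reactive protein (12.66, the others up to 12.56). Replicate 4 was low for Cyp4a1 (10.78, the others from 11.27), the nuclear receptor coactivator Ncoa1 (7.98, the others from 8.16) and the zinc finger gene Zfp64 (4.99, the others from 5.40). Replicate 3 was low for the neurturin receptor Gfra2 (4.83, the others from 5.00).

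In vehicle, replicate 1 had 8 of the 13 such values. It was high for Ifit1 (6.00, the others up to 5.66), the class II genes RT1-DMb (8.45, the others up to 7.52) and RT1-Bb (7.31, the others up to 4.30), the Fc receptor gene Fcgr1a (6.35, the others up to 6.09), the lipase-related gene Pnpla3 (7.05, the others up to 5.16) and Zfp64 (5.56, the others up to 5.30). It was low for Clca2 (5.49, the others from 7.59) and Gpcpd1 (5.98, the others from 6.33). Replicate 4 was low for Ubd (5.08, the others from 7.19). Replicate 5 was high for the folate receptor gene Folr2 (6.73, the others up to 6.25) and Rcan3 (5.63, the others up to 5.51), replicate 2 for the endothelial receptor gene Gpr182 (8.35, the others up to 8.12) and replicate 6 for the p53 target Phlda3 (9.17, the others up to 8.58). All values are log2.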

How the results depend on the processing

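Under all 24 alternatives for 7.06 mg/kg against vehicle limma or the exact permutation test called 0 probe sets. For the exact permutation test, its smallest possible p made any call unlikely in advance. The adjusted p came lowest without vehicle replicate 2, at 0.105, then 0.630 with array weights and 0.764 without replicate 5 at 7.06 mg/kg. Before adjustment, array weights put 554 probe sets higher and 1095 lower, and leaving out dim probe sets 216 and 133. Both comparisons with neighbouring doses also stayed at 0. With the replicate block the count of calls was 0, with 330 higher and 749 lower before adjustment. Only 1 of 6 vehicle arrays correlated best with its own number, which does not settle whether the replicate numbers pair these samples.

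Of 149 named genes, 10 changed sign under some alternative. Outside single arrays, these were Cyp4a1 with array weights (-0.0026) and Cyp3a23-3a1 with arrays centred on their medians (0.013). Leaving out 1 array at a time, the log2 difference ran from -0.018 to 0.25 for RT1-DMb, -0.067 to 0.28 for Lyz2, -0.039 to 0.12 for Cyp4a1, -0.062 to 0.046 for Cyp1a1, -0.12 to 0.073 for Cyp3a23-3a1, -0.53 to 0.48 for Ubd, -0.034 to 0.68 for Pnpla3, -0.79 to 0.035 for Clca2, -0.29 to 0.63 for RT1-Bb and -0.12 to 0.00081 for Hsd17b2. Each has an interval across 0 against vehicle. Of 874 recomputed list medians, 8 moved by more than the spread between arrays, in none of the interferon, Kupffer cell or B-cell lists. Depth is not defined for arrays, and dim probe sets are the least certain.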
